A study of Oryza sativa with 6 samples.

Results

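JAZ proteins are the repressors of jasmonate signalling in plants. They hold MYC-type transcription factors inactive by recruiting the adaptor NINJA and TOPLESS co-repressors. When the hormone jasmonoyl-isoleucine accumulates, as it does after wounding or attack, it joins a JAZ protein to the F-box receptor COI1, the JAZ protein is degraded, and the freed factors raise many genes, the JAZ genes themselves included. JAZ transcripts are therefore widely read as early markers of jasmonate action, and each JAZ protein carries a TIFY motif, through which it meets NINJA, and a Jas motif, through which it meets COI1 and MYC factors.

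The 10 rice genes JAZ3 to JAZ12 were taken by their locus identifiers from 55801 loci in the deposited count files. In the RefSeq gene table of assembly ASM3414082v1 all 10 names were found on the chromosome that the locus identifier gives. The names fall into subgroups of the TIFY family: JAZ3 (LOC_Os08g33160) and JAZ4 (LOC_Os09g23660) are TIFY6a and TIFY6b, JAZ5 (LOC_Os04g32480) is TIFY9, JAZ6 (LOC_Os03g28940), JAZ7 (LOC_Os07g42370) and JAZ8 (LOC_Os09g26780) are TIFY10a to TIFY10c, and JAZ9 (LOC_Os03g08310), JAZ10 (LOC_Os03g08330), JAZ11 (LOC_Os03g08320) and JAZ12 (LOC_Os10g25290) are TIFY11a to TIFY11d. JAZ9, JAZ11 and JAZ10 follow one another directly in the locus order of the files and in the RefSeq gene order on chromosome 3. They are related neighbours, so the split of reads among them is uncertain.

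The samples were whole seedlings of the rice (Oryza sativa) cultivar Nipponbare, grown on Chu's medium at 28 °C in 12 h of light and 12 h of dark with no other treatment. AM (n = 3) is the harvest 30 min before the lights came on and PM (n = 3) the harvest 30 min before they went off. Whether the replicates came from different plants is not stated, and the p-values reflect the spread between these libraries, which may be technical. The labels also give the organ as panicle. Of 8 floral MADS-box genes checked, MADS8 and MADS13 had no count and MADS6 and MADS7 had 1 count each over all libraries. MADS3 had 18 counts in AM and 9 in PM and was not tested, and MADS1, with 73 and 85, was not called. MADS16 had 505 counts in AM and 158 in PM (log2 −1.98, edgeR adjusted p = 0.00384), and MADS58 had 44 and 157 (log2 1.69, adjusted p = 0.00754). All 3 leaf genes checked were lower in PM. CAO1, for chlorophyll b synthesis, was at 1417 to 1600 CPM in AM and 18.7 to 26.9 CPM in PM, where CPM are counts scaled to a common library size. LHCB4, for a light-harvesting protein, was at 9420 to 17310 CPM in AM and 35.2 to 35.7 CPM in PM, and RCA, for Rubisco activase, at 29245 to 44333 and 1152 to 1941 CPM. The part of these markers in the JAZ values was not tested. Gene counts ran from 13 M to 66.7 M per library, and the most that a count of 0 leaves possible, 3 counts, came to 0.0548 to 0.173 CPM. All CPM were computed from the deposited counts and normalised by TMM, which sets the typical locus equal between libraries. In RNA from whole seedlings, fewer cells of a type and less RNA per cell cannot be told apart.

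Between the end of the night and the end of the day, most JAZ genes differed by less than libraries of 1 group did among themselves. Of the 10 genes, 8 passed the filter on low counts and were tested, and at 7 of the 8 the fold change was smaller than the wider of the 2 within-group ranges, JAZ12 among them, as it was at 44% of all tested loci. Of the 8 tested, 1 (JAZ4) was lower in PM and 0 were higher in the quasi-likelihood fit of edgeR (Benjamini-Hochberg adjustment over all loci, threshold 0.05), while 55.9% of all 20548 tested loci were called, 28% in each direction. With an unadjusted p under 0.05 there was 1 higher (JAZ12) and again 1 lower. DESeq2 called JAZ4 lower and JAZ12 higher, and 57.1% of all loci in either direction. AM and PM values did not overlap for JAZ4 and JAZ12, 25% of the tested JAZ genes, against 64.1% of all tested loci. The median absolute log2 fold change was 0.63 for the 8 JAZ genes and 0.85 for all tested loci.

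**Figure D1:**
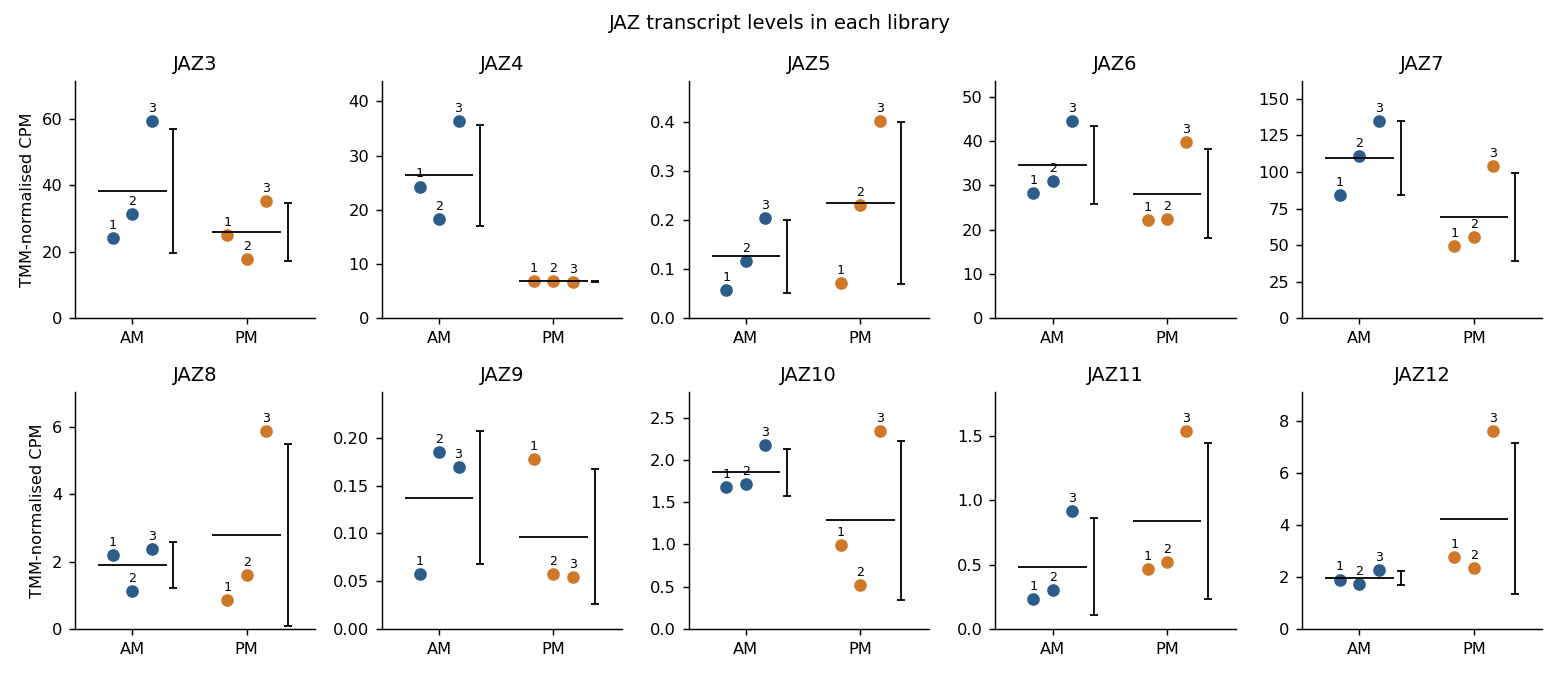
TMM-normalised CPM of each JAZ gene (vertical axes, linear and different in each panel) in the AM (blue) and PM (orange) libraries, numbered by replicate; horizontal lines are group means and the bars beside them 1 SD (n = 3). JAZ4 sits at 6.65 to 6.9 CPM in PM, below all 3 AM libraries, and replicate 3 is the highest of its group in most panels.

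JAZ4, a TIFY6-type repressor, had the clearest difference. It was at 24.3, 18.2 and 36.5 CPM in AM replicates 1, 2 and 3 and at 6.9, 6.79 and 6.65 CPM in PM replicates 1, 2 and 3. The lowest AM library lay above the highest PM library, and the PM libraries were nearly equal. Its mean fell from 26.3 ± 9.28 to 6.78 ± 0.126 CPM (SD, n = 3), a log2 fold change of PM over AM of −1.96 (SE 0.26, edgeR adjusted p = 0.000299). AM exceeded PM 3.88-fold, with a 95% interval for the log2 change of −2.55 to −1.36. The call held without each library in turn, with log2 changes between −2.16 and −1.64. Scaled by library totals alone, which moved the median of all loci from −0.01 to 0.84, the value was −1.15 and still called.

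JAZ3, the other TIFY6-type gene, was at 24.1, 31.2 and 59.4 CPM in AM and at 25.2, 17.7 and 35.1 CPM in PM. AM replicate 3 stood well above both other AM libraries, and the groups overlapped. The log2 fold change was −0.55 (95% interval −1.37 to 0.26, edgeR adjusted p = 0.219), and it turned to 0.26 with library totals alone. Without AM replicate 3 it was −0.09, and without PM replicate 3 it was −0.83, neither past the threshold.

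The TIFY10 subgroup held genes that the test did not separate by time of day. JAZ7 was at 84, 111 and 135 CPM in AM and 49.1, 55.4 and 104 CPM in PM. Only PM replicate 3 reached into the AM range. The log2 change was −0.66 (95% interval −1.35 to 0.03, edgeR adjusted p = 0.0952). Without PM replicate 3 JAZ7 was lower by the test, at −1.07 (adjusted p = 0.00655; 26.6% of all loci were then called lower). With library totals alone it stood at 0.17. JAZ6 was at 28.3, 31 and 44.7 CPM in AM and at 22.1, 22.5 and 39.9 CPM in PM. As for JAZ7, PM replicate 3 lay inside the AM range and the other PM libraries lay below it. Its log2 change was −0.29 (95% interval −0.93 to 0.34, adjusted p = 0.392), or −0.63 without PM replicate 3, −0.07 without AM replicate 3 and 0.53 with library totals alone.

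JAZ8, whose protein has been tied to resistance against bacterial blight in rice, was read at low counts. It had 38, 48 and 70 counts in AM (2.19, 1.11 and 2.38 CPM) and 24, 28 and 321 counts in PM (0.854, 1.61 and 5.86 CPM). PM replicate 3 was above all other libraries and PM replicate 1 below them. The log2 change was 0.60 with an interval of −0.91 to 2.11 (edgeR adjusted p = 0.464), and it turned to −0.63 without PM replicate 3.

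In the TIFY11 subgroup, JAZ12 had the largest log2 change towards PM. It was at 1.9, 1.73 and 2.27 CPM in AM and at 2.78, 2.36 and 7.62 CPM in PM. Every PM library lay above every AM library, but PM replicate 2 exceeded AM replicate 3 only slightly and PM replicate 3 was far above the rest. The mean was 1.97 ± 0.276 CPM in AM and 4.25 ± 2.92 CPM in PM (SD, n = 3), a log2 change of 1.13 (95% interval 0.08 to 2.18, edgeR adjusted p = 0.0642). It was past the threshold by library totals alone (1.96, adjusted p = 0.0033), where 54.5% of all loci were called higher. The same held without PM replicate 2 (1.42, adjusted p = 0.0279), using no filter on low counts (adjusted p = 0.0405) and with DESeq2 (adjusted p = 0.0375). Without PM replicate 3 it was at 0.39 (adjusted p = 0.378), so the size of the difference rested on that library.

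JAZ10, whose overexpression has been reported to enlarge rice grains, was at 1.67, 1.71 and 2.17 CPM in AM and at 0.996, 0.518 and 2.34 CPM in PM. Those are 29, 74 and 64 counts in AM and 28, 9 and 128 in PM. The AM libraries were close together, and PM replicate 3 stood above them while both other PM libraries stood below. Its log2 change was −0.47 (95% interval −1.63 to 0.68, edgeR adjusted p = 0.452), 0.35 with library totals alone and −1.26 without PM replicate 3 (adjusted p = 0.0521). JAZ11 had 4, 13 and 27 counts in AM and 13, 9 and 84 in PM, or 0.231, 0.301 and 0.917 CPM against 0.463, 0.518 and 1.53 CPM. Replicate 3 was the highest in both groups, and the groups overlapped. Its log2 change was 0.83 (95% interval −0.70 to 2.36, edgeR adjusted p = 0.321). It was 1.67 without AM replicate 3 (adjusted p = 0.0698) and −0.01 without PM replicate 3.

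JAZ5 and JAZ9 were at or near the counting limit. JAZ5, the TIFY9-type gene, had 1, 5 and 6 counts in AM and 2, 4 and 22 in PM. JAZ9, whose protein binds NINJA and the factor bHLH062 in rice, had 1, 8 and 5 counts in AM and 5, 1 and 3 in PM. Neither passed the filter, and at this depth no difference was detectable for either. Fitted with no filter, their log2 changes were 0.93 and −0.56 (edgeR adjusted p = 0.425 and 0.645).

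**Figure D2:**
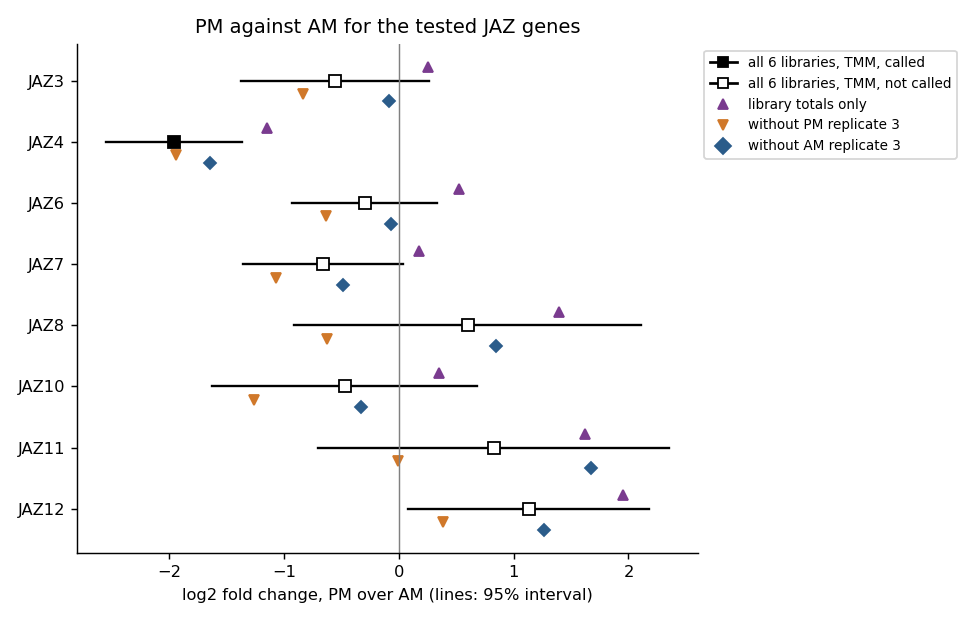
Log2 fold change of PM over AM (horizontal axis) for the 8 tested JAZ genes, with squares for the edgeR fit of all 6 libraries after TMM scaling (filled if called) and lines for the 95% interval; triangles and diamonds give the same value with library totals alone or with 1 library left out. JAZ4 alone is called, at −1.96, and JAZ8 and JAZ11 move to −0.63 and −0.01 without PM replicate 3.

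The spread within groups was the main feature of the other genes. AM replicate 3 was the highest of the AM libraries at 8 of the 8 tested JAZ genes, whereas it was the highest at 37.8% of all tested loci. PM replicate 3 was the highest of the PM libraries at 7 of the 8 (39.7% of all tested loci), and JAZ4 was the exception. Against the mean of the other AM libraries, AM replicate 3 was higher by a median of 0.59 log2 units over the 8 JAZ genes and 0.00 over all tested loci. PM replicate 3 was higher by a median of 1.26 log2 units over the JAZ genes and 0.03 over all tested loci. The excess in PM replicate 3 was 2.26 log2 units for JAZ8, 1.61 for JAZ10, 1.55 for JAZ12 and 1.53 for JAZ11. It was 0.73 to 0.99 for JAZ3, JAZ6 and JAZ7 and −0.04 for JAZ4. In AM replicate 3 the excess was 1.58 for JAZ11, 1.11 for JAZ3 and 0.79 for JAZ4, and 0.31 to 0.59 for the other tested genes.

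**Figure D3:**
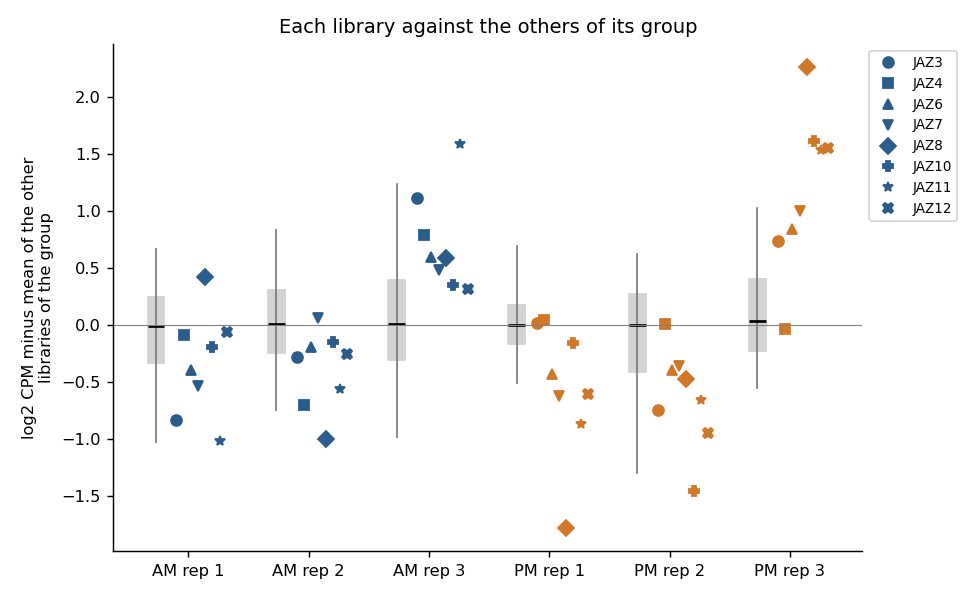
Log2 CPM of each tested JAZ gene in a library minus the mean of the other libraries of its group (vertical axis), by library; grey boxes and lines give the quartiles and the 5th to 95th percentiles over all tested loci, with the median in black. The JAZ genes sit above 0 in AM replicate 3, with a median of 0.59, and all but JAZ4 do in PM replicate 3, with a median of 1.26.

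The range between the highest and the lowest library was large for PM. Its median over the JAZ genes was 1.34 log2 units in PM and 0.84 in AM, against 0.49 and 0.56 over all tested loci. JAZ8 ranged over 2.69 log2 units in PM, more than 99.1% of tested loci, and JAZ10 over 2.05, more than 97.3%. Both rested on low counts in some PM libraries (24, 28 and 321 for JAZ8, 28, 9 and 128 for JAZ10). JAZ4 was at the other end, with a PM range of 0.05 log2 units that only 1.16% of tested loci undercut. In AM the widest was JAZ11, at 1.74 log2 units, and the narrowest JAZ10, at 0.36.

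Depth and alignment values moved with some of these differences. PM replicate 3 was the deepest PM library (41.7 M gene counts, against 20.4 M and 13 M) and had the lowest share of multiply aligned records of the 6, 39.1%, and the highest share on no feature, 6.26%. AM replicate 3, at 36.1 M, lay between AM replicates 1 and 2 (22.3 M and 66.7 M). Within AM it too had the lowest share of multiply aligned records, 45.1% against 46.9% and 56.1%. Its share on no feature was the highest of the AM libraries, 4.25% against 3.43% and 2.92%. With all libraries thinned to the smallest, JAZ4 was again the only called JAZ gene, of 7 tested (56% of all loci were called). The part of depth and alignment in the spread was not tested.

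Ratios of raw counts between genes of 1 subgroup do not depend on how libraries are scaled. All 7 ratios between tested genes of the same subgroup were examined, and the subgroups were set with the values known. JAZ4 over JAZ3 was 1.01, 0.585 and 0.613 in AM and 0.274, 0.383 and 0.189 in PM. No PM ratio reached an AM ratio, so relative to JAZ3, JAZ4 was lower in PM in every library, by 1.39 log2 units on average. JAZ12 over JAZ10 was 1.14, 1.01 and 1.05 in AM and 2.79, 4.56 and 3.26 in PM. Here the AM ratios were nearly equal and all PM ratios lay far above them (1.07 ± 0.0644 against 3.53 ± 0.916, SD, n = 3), 1.70 log2 units apart. JAZ10 had 28, 9 and 128 counts in PM, so ratios over it rest on few reads in PM replicate 2. The ratios also did not overlap for JAZ7 over JAZ6 (3.19 ± 0.34 in AM, 2.43 ± 0.196 in PM, SD, n = 3) and for JAZ11 over JAZ10 (0.245 ± 0.154 and 0.707 ± 0.271, SD, n = 3). These 4 had a two-sided exact permutation p of 0.1, the smallest that 3 against 3 allows, and an adjusted p of 0.175 over the 7 ratios. Taken singly, 64.1% of all tested loci did not overlap between the groups. The share for ratios between other loci was not computed, so 4 of 7 is a description only. JAZ8 over JAZ6, JAZ8 over JAZ7 and JAZ12 over JAZ11 overlapped (exact permutation p = 0.6, 0.3 and 0.9).

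**Figure D4:**
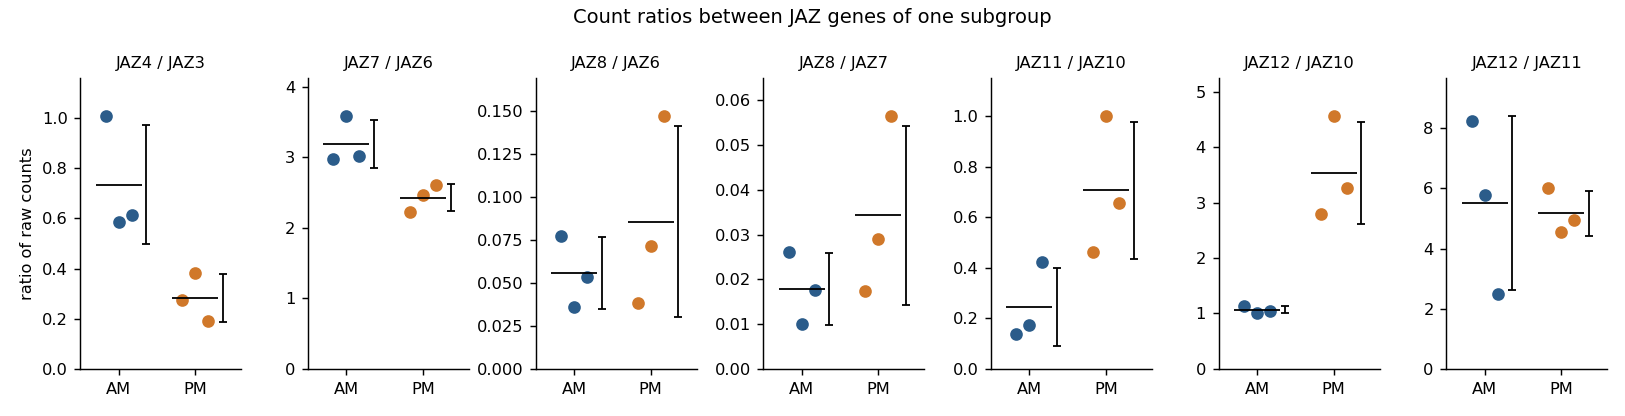
Ratio of raw counts (vertical axes, linear, from 0) between JAZ genes of the same TIFY subgroup in the AM (blue) and PM (orange) libraries, in the order of replicates 1 to 3; lines are means and bars 1 SD (n = 3). JAZ12 over JAZ10 sits at 1.01 to 1.14 in AM and 2.79 to 4.56 in PM.

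Likeness between genes was measured as the root-mean-square difference of their log2 CPM over the 6 libraries, after subtracting each gene's mean; it is a description, since libraries of 1 group share their time of day. Among the 28 pairs of tested JAZ genes, JAZ6 and JAZ7 were the most alike (0.22 log2 units), followed by JAZ3 with JAZ6 (0.26) and JAZ3 with JAZ7 (0.32). JAZ4 and JAZ12 were the least alike (1.5). Against the mean pattern of the 8 JAZ genes, which was highest in replicate 3 of both groups, the nearest of 11313 other loci whose log2 CPM averaged at least 3 were LOC_Os11g31190 (0.19) and LOC_Os05g04510 (0.23). LOC_Os11g31190 was at 15.6, 18.4 and 33.4 CPM in AM and 11.5, 11.1 and 22.5 CPM in PM. Within the jasmonate lists the nearest were JAMYB (0.25), a MYB gene that jasmonate induces, and RCI1 (0.27), for a lipoxygenase that starts jasmonate synthesis. Fewer than 1% of the other tested loci were nearer than either, 0.161% and 0.204%. They are the nearest of 22 tested genes of these lists, and the share of nearer loci was 58.8% for JAZ1, 62.5% for JAR1 and 85.1% for PBZ1. In AM, JAMYB was highest in replicate 1 and RCI1 in replicate 2, unlike the mean pattern.

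The rest of the JAZ family divided into 1 abundant and 4 rarely read genes. JAZ1 (LOC_Os04g55920, TIFY3) was at 133, 137 and 156 CPM in AM and 39.5, 41.9 and 46.4 CPM in PM. The groups were far apart and the libraries within each close together. Its log2 change was −1.73 (SE 0.15, edgeR adjusted p = 3.27e-05), so JAZ1 and JAZ4 were the JAZ genes that fell. JAZ13 had 15 counts in AM and 31 in PM, JAZ2 had 1 count over all libraries, and JAZ14 and JAZ15 had 0.

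Of 9 genes that make jasmonate 8 were tested, of which 2 were lower, 0 higher and 6 not called, where 28% of all tested loci were lower and 28% higher, with a median log2 change of −0.54. JAR1 (LOC_Os05g50890), which joins jasmonate to isoleucine to form the active hormone, was at 163, 184 and 225 CPM in AM and 49.2, 51.1 and 57.2 CPM in PM. The groups did not overlap, and the log2 change was −1.86 (SE 0.18, edgeR adjusted p = 4.6e-05). AOC (LOC_Os03g32314), the allene oxide cyclase, fell from 41 ± 12.2 to 17.8 ± 5.38 CPM (SD, n = 3; log2 −1.20, edgeR adjusted p = 0.00732), and was not called with library totals alone (−0.35). AOS2, for an allene oxide synthase upstream of AOC, had 79 counts in AM replicate 3 against 4 and 11 in AM replicates 1 and 2. AOS1, the other allene oxide synthase gene of the list, had no such peak, at 4.1, 5.55 and 7.1 CPM in AM. Its log2 change was 0.01 and it was not called. Of the cytochrome P450 genes that break the hormone down, CYP94C2b had 34 counts in PM replicate 3 and 1 to 3 in each other library. CYP94C2a had no such peak, with 6, 1 and 1 counts in AM and 5, 0 and 6 in PM. Neither passed the filter on low counts.

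Receptor and co-repressor genes ranged 1.03- to 1.78-fold between the highest and lowest library of a group, and the tested JAZ genes 1.04- to 6.87-fold. These sets differ in level: the 6.87 is JAZ8 in PM, at 24, 28 and 321 counts, while receptor and co-repressor genes had at least 585 counts in each library. JAZ3, JAZ6 and JAZ7, with at least 308 counts in each library, ranged 1.58- to 2.46-fold. COI2 (LOC_Os03g15880) rose from 33 ± 3.75 to 64.3 ± 1.07 CPM (SD, n = 3; log2 0.96, edgeR adjusted p = 0.000694). COI1a (LOC_Os01g63420) stood at a log2 change of −0.26 (95% interval −0.60 to 0.09) and COI1b (LOC_Os05g37690) at −0.02 (−0.35 to 0.31), neither called; with library totals alone both were called higher, at 0.58 and 0.82. Of the 4 co-repressor genes, TPR3 (LOC_Os03g14980) was higher (log2 0.79, edgeR adjusted p = 0.009) and ASP1 (LOC_Os08g06480) was lower (−0.48, adjusted p = 0.0459). Of all tested loci, 28% were called in each direction. The ASP1 call ended with upper-quartile scaling, no filter, a replicate block or thinning, and without any 1 library except AM replicate 2. In these fits the edgeR adjusted p was 0.0506 to 0.135 and the values were −0.56 to −0.36. With library totals alone the sign of ASP1 turned (0.35).

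Among 5 jasmonate transcription factor genes, 4 were tested and 1 was called, where 55.9% of all tested loci were called. MYC2 (LOC_Os10g42430), the central factor that JAZ proteins hold inactive, was at 34.4, 50.3 and 47.4 CPM in AM and 25.6, 15.3 and 37.4 CPM in PM. PM replicate 3 overlapped the AM range. The log2 change was −0.75 (95% interval −1.45 to −0.05, edgeR adjusted p = 0.0651); it was called lower without PM replicate 3 (−1.10, adjusted p = 0.0125) and by DESeq2 (adjusted p = 0.0295), and stood at 0.10 with library totals alone. bHLH062 (LOC_Os07g43530), which binds JAZ9, was lower (−1.01, edgeR adjusted p = 0.0259), though not without AM replicate 3 (−0.78), PM replicate 1 (−0.90) or PM replicate 2 (−0.85), nor with library totals alone (−0.19). Of 5 defence genes 2 were tested. PBZ1 (LOC_Os12g36880), a PR10 gene, was lower in PM (log2 −2.92, edgeR adjusted p = 0.000578), from 169 counts over the AM libraries and 27 over the PM libraries.

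Over all 33 jasmonate genes outside JAZ3 to JAZ12, 22 were tested, of which 2 were higher and 6 lower. Of all tested loci, 28% were higher and 28% lower. The median log2 change was −0.40 for these 22 genes and −0.01 for all tested loci. Without AM replicate 3, 4 of the jasmonate genes were higher and 4 lower. In that fit 29.5% of all tested loci were higher and 28.2% lower. AM replicate 3 was the highest AM library at 16 of the 22, and at 37.8% of all tested loci. PM replicate 3 was the highest PM library at 13 of the 22, and at 39.7% of all tested loci. The excess of these 2 libraries over the others of their group had medians of 0.24 and 0.55 log2 units, below those of the JAZ genes. Over all tested loci the medians were 0.00 and 0.03. Some defence and root transcripts were highest in AM replicate 3 among the AM libraries and others were not. JIOsPR10, another PR10 gene, had 67 counts there against 2 and 14 in AM replicates 1 and 2. RSOsPR10 had 18 against 4 and 3, whereas PBZ1 was lowest there (1.7 CPM, against 2.31 and 1.83), PR1a had no count in AM and PR1b had 1, 0 and 1 counts. The root manganese transporter gene NRAMP5 had 103 against 5 and 18, while the root silicon channel gene Lsi1 was lowest there (16 CPM, against 22 and 28.3) and Lsi2 had no count in any library. The part of tissue make-up and of defence in the JAZ values was not tested.

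**Figure D5:**
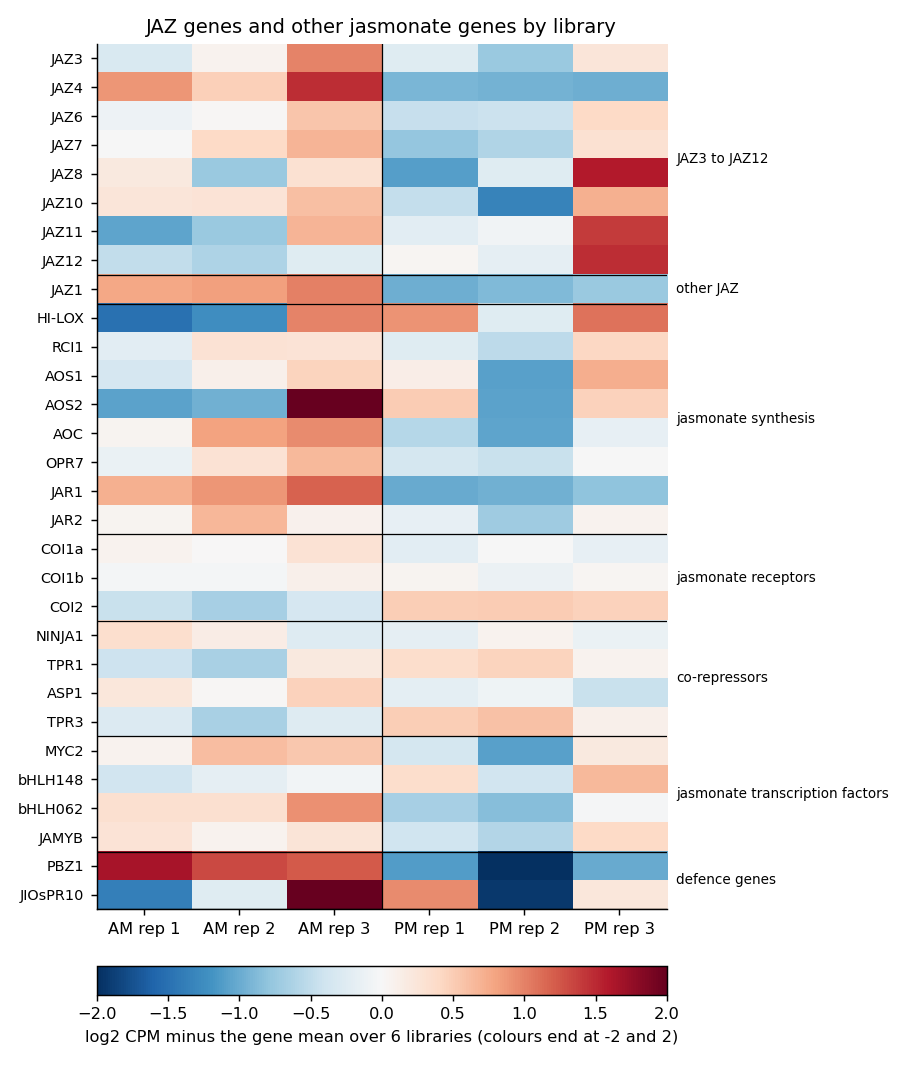
Log2 CPM minus the mean of each gene over the 6 libraries (colour, red higher and blue lower) for the 8 tested JAZ genes and 22 other tested jasmonate genes, grouped by list, with AM libraries left and PM libraries right of the line. JAZ4, JAZ1 and JAR1 are red in all 3 AM libraries and blue in all 3 PM libraries, while JAZ8, JAZ11 and JAZ12 are darkest red in PM replicate 3.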

How the data were processed

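Per the submitters' processing notes, the authors used Trimmomatic 0.33, STAR and HTSeq 0.6.1; the STAR version, genome build, annotation and strand setting were not given in the sources used here. Coordinates are therefore left out, and antisense or overlapping genes are not separable. The deposited files hold raw counts per locus, with 5 summary lines kept out of library sizes and tests. Multiply aligned records were 39.1% to 56.1% of all records, those on no feature 2.92% to 6.26% and ambiguous ones 0.112% to 0.171%. Every comparison of replicates exceeded sampling noise (chi-square per degree of freedom 18.8 to 145).

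PM was compared with AM by edgeR 4.0.16 (glmQLFit, glmQLFTest; R 4.3.3) on all loci, with TMM, filterByExpr (minimum count 10, 20548 loci) and Benjamini-Hochberg adjustment at 0.05. The same functions were first tested on simulated data. Log2 CPM used a prior count of 2. SEs come from the coefficient and its F statistic, and the 95% intervals of log2 changes, SE times a t quantile, include the spread between libraries. The limit for a count of 0 covers counting error only. The 16 alternatives include RLE, upper-quartile and total scaling, filters, a replicate block, DESeq2 1.42.0, limma-voom (limma 3.58.1), robust fitting, thinning and leaving out each library.

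The members and lists were chosen with earlier results of these data known. The text names all 10 members. Of the other lists it names the called gene of smallest p in each direction, MYC2, JAR1, AOC and the COI genes. Others were named after their values were seen (JAZ2, JAZ13, JAZ14, JAZ15, AOS1, AOS2, CYP94C2a, CYP94C2b, JAMYB, RCI1, JIOsPR10, RSOsPR10, PR1a, PR1b and the tissue markers). Of the 33 other jasmonate genes, 17 names were found in RefSeq on the stated chromosome; the rest keep the names of the lists, and for ASP1 the RefSeq name lies on another chromosome. Transcript lengths of the files' build were not used here, so levels are not compared between genes.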

Additional observations from a re-analysis of the deposited data

How the results depend on the processing

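Over the 16 alternatives JAZ4 was lower in PM in each, between −2.16 and −1.15. The count of JAZ genes called higher was 1 with library totals alone, with no filter and with DESeq2 (JAZ12 in each). Of all loci, 54.5%, 18.8% and 28.2% were higher in these fits. When a library was dropped, 0 to 1 JAZ genes were called higher and 1 to 2 lower. In those fits 22.6% to 29.5% of all loci were higher and 22.4% to 28.2% lower. With library totals alone, 11201 loci were higher and 2764 lower, and 9 and 3 of the other jasmonate genes; leaving out 1 library gave 2 to 4 of these higher. That scaling turned JAZ3 to 0.26, JAZ6 to 0.53, JAZ7 to 0.17, JAZ10 to 0.35, MYC2 to 0.10, ASP1 to 0.35, COI1a to 0.58 and COI1b to 0.82, which follows from the shift of all loci. COI1b was at 0.0061 with upper-quartile scaling and 0.015 with no filter, and between −0.041 and 0.043 with 1 library left out. Leaving out 1 library gave −0.63 to 1.03 for JAZ8 and −0.0062 to 1.67 for JAZ11; the cause was not tested.

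Same-numbered AM and PM libraries did not deviate together over all tested loci (correlations −0.06, −0.27 and 0.10). Differently numbered ones gave −0.41 (AM replicate 1 with PM replicate 3) to 0.39 (AM replicate 1 with PM replicate 2). Such correlations cannot show whether the libraries were paired, and the main fit used no pairing. With the replicate block, 2 JAZ genes were lower (JAZ4 and JAZ7; JAZ7 at −0.72, adjusted p = 0.0232, edgeR), where 24.6% of loci were called lower, and ASP1 was not called (−0.48, adjusted p = 0.116). Depth limits JAZ5, JAZ9 and JAZ11 most, and with 3 libraries a group JAZ8 and JAZ11 had the widest intervals of the tested JAZ genes.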
